A study of Mus musculus with 60 samples.

Results

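Genes carrying H4K8ac, H3K27me3 or both marks were compared in hippocampal nuclei of exercised mice prepared by simultaneous isolation (SIT). A gene was a member if at least 1 peak of either list of this preparation had been assigned to its symbol. There were 14360 such genes, from 38136 H4K8ac peaks and 25693 H3K27me3 peaks, of 16994 genes and 256375 peaks over the 12 lists analysed here. The series was CUT&RUN-seq, in which an antibody directs a nuclease to cut out bound DNA, in 60 samples labelled with 18 groups of mark, condition and isolation. All groups used here came from Emx1-NuTRAP mice, which per the methods were male offspring of Emx1-IRES-Cre and NuTRAP parents. Cre driven from Emx1 tags nuclei mainly of excitatory neurons, and also of progenitors, for purification. Exercised mice were housed with a running wheel between postnatal days 21 and 41, and sedentary mice in standard cages. In the SIT arm both hippocampi were pooled for nuclei and RNA together, and in the separate arms nuclei came from the left or the right hippocampus alone. The labels give 4 samples for each mark in exercised SIT, but each list is a single pooled set of peak positions, without heights and without a record of the sample behind a peak. Each list was therefore 1 unit, the depth behind it is unknown, and intervals below cover counting error over genes or peaks only. The methods also state that an exercised SIT library of H4K8ac was left out for a high false discovery rate, as were libraries of H4K8ac from the exercised separate arms, whose lists enter the 6-pair comparisons below.

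Acetylation of histone H4 at the lysine called K8 is laid down by histone acetyltransferases and is found at promoters and enhancers of active genes. Trimethylation of histone H3 at the lysine called K27 is deposited by Polycomb repressive complex PRC2, spreads over wide domains and is known for holding developmental regulators silent in differentiated neurons. A gene with both marks may carry them on the same chromatin, at different places along the gene, or in different cells. The nuclei pooled several neuron types, so marks in the same cells cannot be told apart from marks in different cells, and a missing peak cannot be told apart from a weak signal or from fewer cells with the mark.

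The sequence just before transcription starts differed in how many CpG dinucleotides it held. Of 21951 protein-coding genes in GENCODE M21, 4041 (18.4%) had their annotated start site inside an H4K8ac peak only, 2262 (10.3%) inside an H3K27me3 peak only and 16 (0.0729%) inside peaks of both marks. In the 200 bp upstream of the start, on the strand of the gene, the median was 11 CpGs where the start lay in H4K8ac and 7 where it lay in H3K27me3. It was 8.5 at the 16 starts in both marks and 5 at the 15614 starts in neither. Over all 21933 starts with a full window it was 7, the same as at the starts in H3K27me3. Upstream windows with no CpG made up 1.01% of those with H4K8ac, 6.81% of those with H3K27me3, 12.3% of those with neither and 9.6% of all. Windows with 10 or more CpGs made up 58.2, 37.6, 38.1 and 41.8% in that order. The examples below are genes of the functional lists used further on (for the starts in both marks, any of the 16) whose CpG number is nearest the median of their class. Each runs 5′ to 3′ on the strand of the gene in RefSeq sequence of GRCm38, with CpGs in capitals. The first group had the start in H4K8ac and 11 CpGs each. They are Kat5, an acetyltransferase gene (chr19:5610238-5610437, minus strand), Rpl22, a ribosomal protein gene (chr4:152325542-152325741, plus strand), and Snap25, a synaptic fusion protein gene (chr2:136713253-136713452, plus strand).
Kat5: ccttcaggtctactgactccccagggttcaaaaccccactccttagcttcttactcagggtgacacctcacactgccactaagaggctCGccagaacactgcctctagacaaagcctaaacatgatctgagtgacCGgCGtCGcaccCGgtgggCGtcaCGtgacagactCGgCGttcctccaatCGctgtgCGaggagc
Rpl22: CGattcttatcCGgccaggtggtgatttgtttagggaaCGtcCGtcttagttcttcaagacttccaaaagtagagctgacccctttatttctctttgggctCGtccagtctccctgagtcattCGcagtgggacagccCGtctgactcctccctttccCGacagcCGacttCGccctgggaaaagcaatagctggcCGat
Snap25: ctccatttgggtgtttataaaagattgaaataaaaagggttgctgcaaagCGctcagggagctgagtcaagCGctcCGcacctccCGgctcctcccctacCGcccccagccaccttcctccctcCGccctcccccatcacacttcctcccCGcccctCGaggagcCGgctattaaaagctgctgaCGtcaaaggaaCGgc

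The next group had the start in H3K27me3 and 7 CpGs each. They are Col1a1, a fibrillar collagen gene (chr11:94936024-94936223, plus strand), Htr1b, a serotonin receptor gene (chr9:81633829-81634028, minus strand), and Nkx2-1, a homeobox regulator of ventral forebrain (chr12:56536909-56537108, minus strand).
Col1a1: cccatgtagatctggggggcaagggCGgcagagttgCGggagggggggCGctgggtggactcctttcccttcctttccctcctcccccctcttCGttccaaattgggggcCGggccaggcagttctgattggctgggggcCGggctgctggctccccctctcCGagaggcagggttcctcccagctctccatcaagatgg
Htr1b: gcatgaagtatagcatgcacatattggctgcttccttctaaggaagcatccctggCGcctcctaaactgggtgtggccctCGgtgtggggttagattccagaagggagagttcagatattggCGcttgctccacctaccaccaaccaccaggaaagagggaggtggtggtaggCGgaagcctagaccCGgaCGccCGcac
Nkx2-1: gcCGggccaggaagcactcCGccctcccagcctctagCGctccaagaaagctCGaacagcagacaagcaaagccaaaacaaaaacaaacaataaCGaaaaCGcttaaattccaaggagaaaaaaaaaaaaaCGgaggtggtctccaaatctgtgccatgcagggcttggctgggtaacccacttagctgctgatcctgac

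The last pair had the start in peaks of both marks and 8 CpGs each. They are Cav1, the gene of caveolin (chr6:17306135-17306334, plus strand), and Il27ra, a cytokine receptor subunit gene (chr8:84042590-84042789, minus strand).
Cav1: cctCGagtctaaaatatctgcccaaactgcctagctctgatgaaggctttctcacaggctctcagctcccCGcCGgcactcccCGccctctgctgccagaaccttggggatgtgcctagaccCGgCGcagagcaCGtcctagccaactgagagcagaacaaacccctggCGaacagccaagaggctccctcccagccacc
Il27ra: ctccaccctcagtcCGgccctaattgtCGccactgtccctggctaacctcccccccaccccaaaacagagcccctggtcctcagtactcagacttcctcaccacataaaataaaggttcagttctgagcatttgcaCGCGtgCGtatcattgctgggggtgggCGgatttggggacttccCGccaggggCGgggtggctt

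The GC content of the windows shown was 53 to 59% with H4K8ac, 50 to 66.5% with H3K27me3 and 59 to 61% with both. Genes whose start lay in both marks included Ankrd34c, Arhgef40, Cav1, Cldn23, Enpp2, Eya1, Gm3500, Htr2a, Il27ra, Kirrel2, Mkx, Penk, Rxrg, Stard13 and Trpc6. The CpG number of the 16 ranged from 3 in Ankrd34c to 25 in Penk, the gene of the opioid precursor proenkephalin. Gm3500 belongs to a multi-copy family on chromosome 14 whose near-identical copies can share reads, so its peaks are uncertain.

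By the gene assigned to each peak, H4K8ac alone was the largest class. It held 7888 genes, or 54.9% of the members (95% Wilson interval 54.1 to 55.7%). H3K27me3 alone was found at 3621 genes (25.2%, 24.5 to 25.9%), and both marks at 2851 genes (19.9%, 19.2 to 20.5%). The genes with both were 26.5% of the 10739 genes with H4K8ac and 44.1% of the 6472 genes with H3K27me3. Among all protein-coding genes the shares were 30.8% with H4K8ac only, 11% with both and 13.9% with H3K27me3 only. Of the 21951 genes, 9711 had neither. These serve below as the background for each functional list. Counted by overlap with the gene body or the 3 kb before it (called by gene body below), the shares were 34.9, 5.58 and 13.9%. The other 5 pairs of lists had 763 to 2007 genes with both marks, so list counts from those pairs stand beside fewer such genes. The assignment gives each peak to a single gene, per the methods the closest by distance unless the peak falls within a gene, so a peak lying in a long domain across several genes counts for 1 of them.

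The classes differed in gene length and in where their peaks sat. The median gene length was 24846 bp with H4K8ac only, 37675 bp with both and 14426 bp with H3K27me3 only. Among protein-coding genes the share with both marks was 4.23% in the shortest quartile by length and 7.31, 10.8 and 21.7% in the next quartiles up. The share with H4K8ac only also went up, from 16.4 to 45.4%, while that with H3K27me3 only was 14.0% in the shortest and 12.1% in the longest quartile. A promoter peak, meaning one within 3 kb of a start site, was present at 69.3% of genes with H4K8ac only and at 65.4% of genes with H3K27me3 only. In genes with both marks these shares were lower, 50.3% for H4K8ac and 41.8% for H3K27me3. In 31.04% of the genes with both, every H3K27me3 peak was distal intergenic, and in 19.9% every H4K8ac peak was. The total width per gene had a median of 3070 bp of H4K8ac in genes with that mark only and of 3127 bp in genes with both. For H3K27me3 it was 7068 bp in genes with that mark only and 7854 bp in genes with both.

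Where a gene had both marks, the marks usually lay apart. The smallest gap between an H4K8ac peak and an H3K27me3 peak of the same gene had a median of 12929 bp (95% interval of the median 11986 to 13951 bp), with quartiles of 3506 and 35080 bp. Peaks of both marks overlapped by at least 1 bp in 214 genes (7.51%, 6.60 to 8.53%). The gap was under 1 kb in a further 147 genes (5.16%), 1 to 10 kb in 900 (31.6%), 10 to 100 kb in 1386 (48.6%) and 100 kb or more in 204 (7.16%). Over the whole lists, 267 of the H4K8ac peaks (0.700%) touched an H3K27me3 peak and 258 of the H3K27me3 peaks (1.004%) touched an H4K8ac peak. In 793 genes (27.8%) both marks lay inside the annotated gene body, and their median gap was 8763 bp, against 14749 bp in the other 2058 genes.

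The marks took up different positions along the genes. H4K8ac was nearer to a start site in 1532 genes (53.7%), H3K27me3 was nearer in 1182 (41.5%), and the distance was equal in 137 (4.81%). The median distance from the nearest peak to a start was 2827 bp for H4K8ac and 5980 bp for H3K27me3. Without distal intergenic peaks the share with H4K8ac nearer was 47.7%. Only H4K8ac was at the promoter in 953 genes (33.4%, median gap 13997 bp), only H3K27me3 in 712 (24.97%, 13652 bp), and neither in 705 (24.7%, 20951 bp). Both were at the promoter in 481 genes (16.9%), where the median gap was 1853 bp, with quartiles of 468 and 11731 bp, and peaks overlapped in 18.3% of the genes. Of the 1005 genes with 2 or more peaks of each mark, 367 (36.5%) switched from one mark to the other a single time along the chromosome, 180 (17.9%) switched 2 times and 458 (45.6%) switched 3 or more times.

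**Figure D1:**
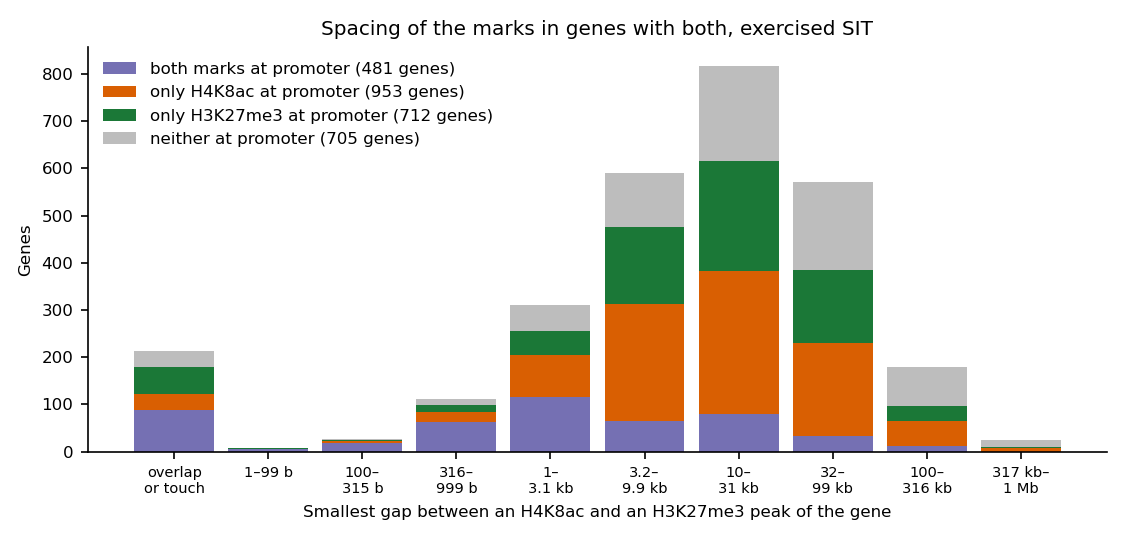
Number of genes with both marks in exercised SIT (vertical axis) by the smallest gap between an H4K8ac and an H3K27me3 peak of the gene (horizontal axis, bins on a log scale), with colours for which mark had a promoter peak. Most of the 2851 genes lie in the bins from 1 kb to 100 kb, and the 481 genes with both marks at the promoter are the largest colour in the bins with gaps under 1 kb and in the overlap bin.

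The genes with the most of both marks, ranked by the smaller of their total widths, differed in how the marks were arranged. Nav2, a gene of neurite growth at chr7:48908716-49610090 (plus strand), had 14 H3K27me3 peaks (89020 bp in total) at its 5′ end and 21 H4K8ac peaks (38841 bp) further along the gene, mostly in introns. A gap of 158165 bp and a single switch separated them. Diaph3, a formin gene, Tdrd3, a tudor domain gene, and Mdga2, a synaptic adhesion gene, also had a single switch, with gaps of 147010, 98173 and 103939 bp. Foxp1, a forkhead transcription factor of cortical and hippocampal neurons at chr6:98925338-99522721 (minus strand), differed from Nav2, with 5 switches. Of its 11 H3K27me3 peaks (42065 bp), 9 were distal intergenic and beyond its 3′ end, while 2 of its 25 H4K8ac peaks (42925 bp in all) were intergenic. A 518 bp overlap lay in the region beyond the 3′ end.

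Other genes of this group also switched more than once. Tenm3, a teneurin that guides wiring between hippocampal subregions, had 26 H4K8ac peaks (48869 bp) and 35 H3K27me3 peaks (137210 bp) with 11 switches and 1205 bp of overlap. Elmo1, a regulator of Rac signalling, had 17 and 26 peaks (37345 and 141087 bp), also with 11 switches, and a smallest gap of 486 bp. Acvr2a, an activin receptor, had 19 H4K8ac peaks (40272 bp) and 16 H3K27me3 peaks (67217 bp), mostly intergenic, 8220 bp apart at the nearest, with 7 switches. Fat4, an atypical cadherin, had 19 and 9 peaks (43217 and 33575 bp) with 3 switches and 1047 bp of overlap.

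The most overlapping bases were in Runx1t1, a transcriptional corepressor gene (chr4:13743436-13893649, plus strand), with 14968 bp shared between 14 H4K8ac and 43 H3K27me3 peaks. H4K8ac peaks of up to 5957 bp sat on or beside H3K27me3 peaks of 15467 and 12689 bp near its start sites. Mir124-2hg, a host gene of the neuronal microRNA miR-124 (chr3:17789921-17808970, plus strand), followed with 13044 bp. There an H4K8ac peak of 8554 bp at the start lay wholly in an H3K27me3 peak of 14713 bp (chr3:17785259-17799971). Zfp536, a zinc finger repressor of neuronal differentiation, had 7250 bp of overlap, with 5 H4K8ac and 57 H3K27me3 peaks. Gm3500 (6494 bp) and Gm5796 (4017 bp) came next, and both are of the multi-copy family on chromosome 14, so their overlap is uncertain. Over all 214 genes with overlap the median of shared bases was 1086 bp.

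**Figure D2:**
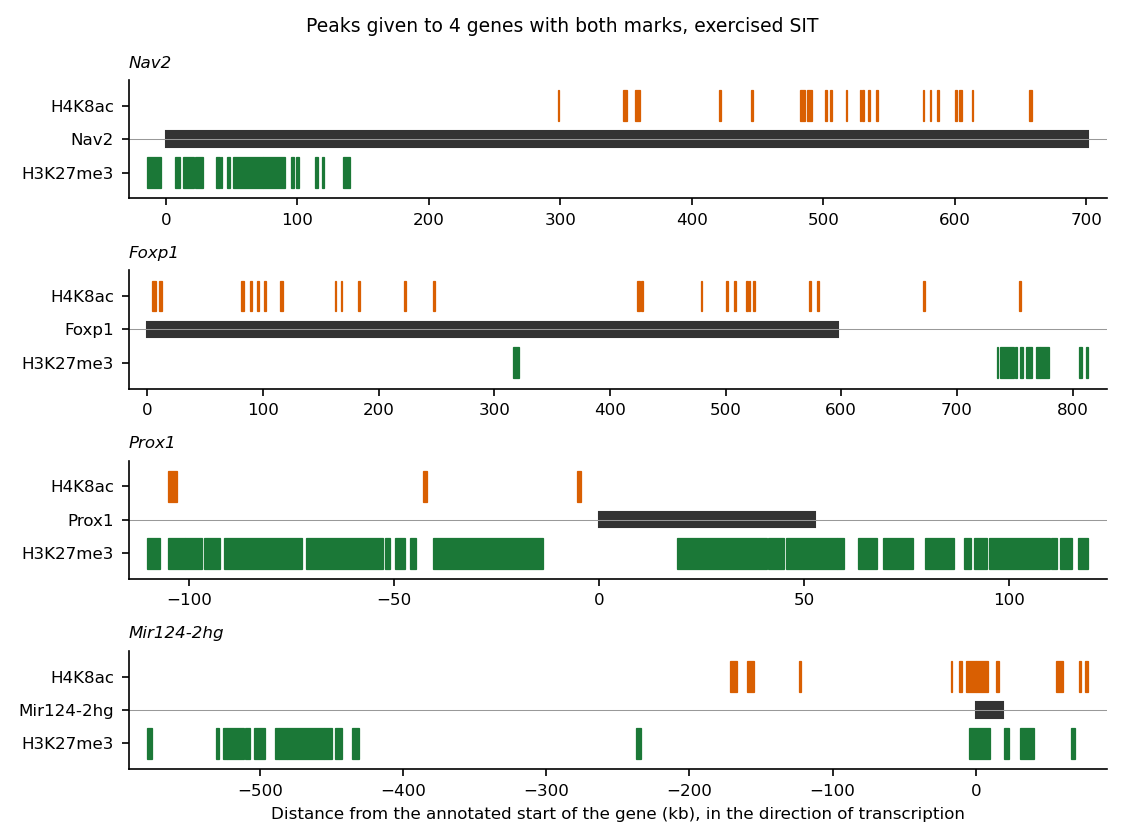
Peaks given to Nav2, Foxp1, Prox1 and Mir124-2hg in exercised SIT, drawn to scale by distance from the annotated start in kb in the direction of transcription, with H4K8ac above and H3K27me3 below the gene body (dark bar). The marks are 158165 bp apart in Nav2, H3K27me3 lies mostly beyond the 3′ end in Foxp1, H3K27me3 is on both sides of the start in Prox1, and both marks share 13044 bp in Mir124-2hg.

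The marks fell into different annotation classes. In exercised SIT, introns held 35.7% of H4K8ac peaks and 21.2% of H3K27me3 peaks, and distal intergenic sequence held 28.9% and 46.7%. Promoters held 24.2 and 17.9%, and exons 7.88 and 11.1%. The same contrast could be made in 6 pairs of lists, each, per the methods, from nuclei divided between antibodies. The distal intergenic share was higher for H3K27me3 in 6 of 6 pairs, by 16.6 ± 3.39 percentage points (mean ± SD over 6 pairs), and the intron share was lower in 6 of 6, by -17.0 ± 2.78 points. In the exact two-sided sign-flip permutation test each had p = 0.03125, the smallest that 6 pairs can give, and an adjusted p of 0.0625 over 6 tests, which misses 0.05. Without the exercised left and right pairs these differences were 15.8 ± 3.80 and -17.3 ± 3.49 points over 4 pairs. The promoter share differed by -2.74 ± 4.60 points and was lower for H3K27me3 in 5 of 6 pairs (exact permutation p = 0.2188, adjusted 0.2625). Counted by bases, the promoter contrast turned round. Peaks of the promoter class held 24.8% of H4K8ac bases and 28.8% of H3K27me3 bases in exercised SIT. Each such peak counts with its full width, also where it runs beyond the 3 kb window. Promoter peaks of H3K27me3 were wider (median 4439 bp against 1843 bp), so this share also reflects width. The share of bases was higher for H3K27me3 in 6 of 6 pairs, by 7.10 ± 4.20 points (exact permutation p = 0.03125). Its adjusted p of 0.04688 is below that of the intergenic and intron shares only because it adds a test at the smallest p to the family of 6, so it is no stronger than theirs.

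The annotation of a mark also differed with the class of its gene. H3K27me3 peaks of genes with both marks were distal intergenic in 52.0% and promoter in 11.5%, against 41.0 and 25.01% in genes with H3K27me3 only. H4K8ac peaks were distal intergenic in 36.6% in genes with both and in 26.4% in genes with H4K8ac only. These shares have no replicate check.

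H3K27me3 peaks were wider. The median was 1819 bp for H4K8ac (1809 to 1829 bp, quartiles 1285 and 2458 bp) and 3066 bp for H3K27me3 (3028 to 3103 bp, quartiles 2089 and 5413 bp), a ratio of 1.69. Over the 6 pairs the ratio ranged from 1.66 to 3.46 and the log2 difference was 1.03 ± 0.41, higher in 6 of 6 pairs (exact permutation p = 0.03125, adjusted 0.0625). The gap was largest at promoters in exercised SIT, with medians of 1843 and 4439 bp, against 1744 and 2613 bp in introns and 1822 and 2816 bp in intergenic sequence. Peaks of 10 kb or more numbered 117 for H4K8ac (2.10% of its bases) and 2607 for H3K27me3 (40.7% of its bases). In all, H4K8ac covered 80.3 Mb and H3K27me3 covered 135.6 Mb. The widest H4K8ac peak, 31316 bp, lay at Tcf4, a basic helix-loop-helix factor of neurons. The widest H3K27me3 peak spanned 233495 bp over the promoter and first part of Plcb4, a phospholipase C gene (chr2:135601520-135835014), whose only H4K8ac peak (1360 bp) was in the 3′ UTR class and 47819 bp away from the nearest H3K27me3 peak.

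Peaks of either mark were narrower in genes with both marks. H4K8ac peaks had a median of 1776 bp there (1756 to 1795 bp) and 1835 bp (1824 to 1847 bp) in genes with H4K8ac only. H3K27me3 peaks had medians of 2922 bp (2888 to 2958 bp) and 3263 bp (3195 to 3325 bp). The counting intervals did not overlap, and there is no replicate check. Among promoter peaks, 60.7% of 9216 for H4K8ac and 64.1% of 4592 for H3K27me3 covered a start site. Those over a start were wider than the other promoter peaks, with medians of 2010 and 1540 bp for H4K8ac and of 5773 and 2830 bp for H3K27me3.

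Base composition differed between the marks at promoters in each of the 6 pairs. The CpG ratio, observed over expected CpGs, had a median of 0.377 in H4K8ac promoter peaks and 0.253 in H3K27me3 promoter peaks, and over the pairs it differed by -0.0724 ± 0.0361 (lower for H3K27me3 in 6 of 6 pairs, exact permutation p = 0.03125, adjusted 0.04688 for the same reason as the promoter share of bases). Over all peaks the medians in exercised SIT were 0.217 and 0.196, and the difference over pairs, -0.0141 ± 0.0101, was of that sign in 5 of 6 and did not pass (exact permutation p = 0.0625, adjusted 0.09375). GC content at promoter peaks was 49.0% for H4K8ac and 46.8% for H3K27me3 and was lower for H3K27me3 in 6 of 6 pairs, by -0.991 ± 0.782 points (exact permutation p = 0.03125, adjusted likewise 0.04688). Over all peaks it was 44.2% for H4K8ac and 43.9% for H3K27me3, and over pairs it differed by 0.0327 ± 0.773 points (exact permutation p = 1). The 267 H4K8ac peaks that touched H3K27me3 had a higher median CpG ratio, 0.357 (0.326 to 0.391), than the other H4K8ac peaks (0.217), and 36.7% of them were promoter peaks against 24.1%.

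**Figure D3:**
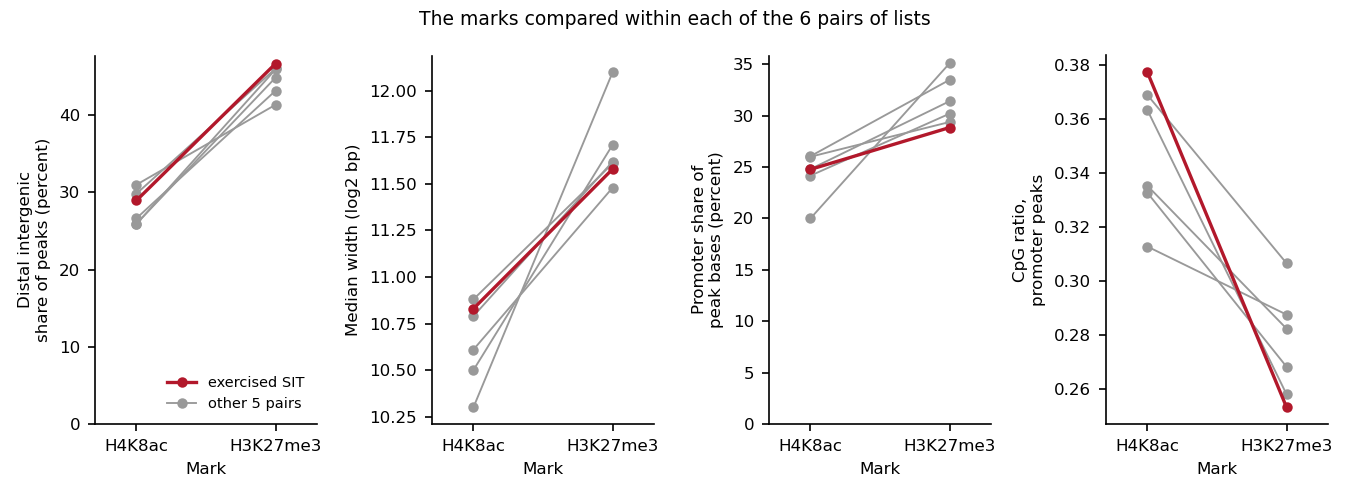
Values of the H4K8ac list and the H3K27me3 list of each of 6 pairs joined by a line (red, exercised SIT, and grey, the other 5 pairs). Shown are the distal intergenic share of peaks in percent, the median width in log2 bp, the share of peak bases in promoter-class peaks (full width) in percent and the CpG ratio of promoter peaks. H3K27me3 is higher in 6 of 6 pairs in width and both shares and lower in 6 of 6 for the CpG ratio.

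The genes of excitatory neurons, which the Emx1 driver should tag, mostly carried H4K8ac. Of 16 identity genes, 9 had H4K8ac only, 6 both and 1 H3K27me3 only, and by gene body 11, 2 and 2. In the other pairs 2 to 4 had both. Their starts were less one-sided, with 5 in H4K8ac, 3 in H3K27me3 and 8 in neither. Neurod1, a neurogenic transcription factor, had a single H4K8ac peak of 12746 bp over its start, Tbr1, a T-box factor of glutamatergic neurons, had 3 peaks (18302 bp), and Bcl11a, a zinc finger factor, had 21 (115256 bp). Zbtb18, a repressor needed for hippocampal development, had 15 (66186 bp). Emx1 itself had 3 H4K8ac peaks (9301 bp) and 1 H3K27me3 peak (2547 bp) 21031 bp away. Slc17a6, the vesicular glutamate transporter of mostly subcortical neurons, had 55850 bp of H3K27me3 against 1163 bp of H4K8ac. Of 16 pan-neuronal genes, 9 had H4K8ac only, 3 both (none by gene body, none to 2 in the other pairs) and none H3K27me3 only, among them Syt1, a synaptic calcium sensor (35 peaks, 87121 bp), and Rbfox3, which encodes the antigen NeuN (27 peaks, 44934 bp). In 4 pan-neuronal genes, Grin1, Syn1, Stx1a and Tubb3, no peak of either mark was assigned. Syn1 is on chromosome X, which held under 1 peak of either mark per Mb, so a missing peak there cannot be told apart from an effect of the processing.

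Genes of the hippocampal subfields were split between the classes, and their counts varied between pairs. Of 11 dentate granule genes, 4 had H4K8ac only, 6 both and 1 H3K27me3 only, and of 11 pyramidal genes 5, 4 and 2. By gene body 4 dentate and 2 pyramidal genes had both, without distal intergenic peaks 5 and 1, and in the other pairs 2 to 6 and 1 to 5. No start of the dentate genes lay in H4K8ac and 5 lay in H3K27me3, and of the pyramidal genes 1 and 2, beside 18.4 and 10.3% of all protein-coding starts. Prox1, the homeobox factor of granule cells (chr1:190118035-190170714, minus strand), had 23 H3K27me3 peaks (170520 bp) on either side of and within it and 3 H4K8ac peaks (4192 bp), of which the intergenic peak of 2138 bp lay wholly in H3K27me3. Its annotated start lay in an H3K27me3 peak that the list gives to another gene. Stxbp6, a SNARE regulator, had 13 and 25 peaks (23401 and 107921 bp) that overlapped, and Glis3, a zinc finger factor, had 15 and 8 peaks (22178 and 22920 bp) 150 bp apart. Calb1, the calcium buffer calbindin, had H4K8ac only (7 peaks, 17489 bp), and Dsp, which encodes desmoplakin, had a single H3K27me3 peak of 14167 bp.

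Markers of GABAergic interneurons, cells that the Emx1 driver largely misses, carried H3K27me3 at most starts. Of 20 genes, 10 had H3K27me3 only, 6 both, 1 H4K8ac only and 3 no assigned peak, and the start of 17 lay inside an H3K27me3 peak. By gene body 16 had H3K27me3 only and 2 both, and 2 to 5 had both in the other pairs. Reln, the secreted guidance protein reelin, had 34 H3K27me3 peaks (381665 bp), Lhx6, a homeobox factor of interneurons from the medial ganglionic eminence, 2 (33457 bp), Dlx5, a distal-less factor, 1 of 53770 bp, and Gad2, a GABA-synthesising enzyme, 4 (25240 bp). Sst and Npy, which encode neuropeptides, had both marks 2660 and 1735 bp apart, with H3K27me3 over the start. Cck, a neuropeptide also made by pyramidal cells, was the member with H4K8ac only (3 peaks, 5843 bp).

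Glial and vascular markers were mixed by assigned peaks, while fewer of their starts lay in H4K8ac than in H3K27me3. Of 12 astrocyte starts 1 lay in H4K8ac and 3 in H3K27me3. Of 14 oligodendrocyte starts none and 6 did, and of 14 microglial and endothelial starts none and 5. Of all protein-coding starts 18.4 and 10.3% did. Astrocyte genes gave 2 with H4K8ac only, 5 both, 2 H3K27me3 only and 3 neither of 12. By gene body or without distal intergenic peaks 2 of them had both and 4 H3K27me3 only, and in the other pairs 1 to 5 had both. Slc1a2, a glutamate transporter also present in neurons, had 10 H4K8ac peaks (28759 bp), and Gfap, S100b and Sox9 had no assigned peak. Oligodendrocyte genes gave 3, 1, 5 and 5 of 14, and by gene body 2, 1, 8 and 3. Olig2, a lineage factor (3 peaks, 89799 bp), and Pdgfra, a growth factor receptor of precursors (36491 bp), had H3K27me3 only, as did Olig1 and the myelin genes Mag and Mobp. Mbp, also a myelin gene (16 peaks, 24333 bp), Mog and Cnp had H4K8ac only. Microglial and endothelial genes gave 4, 2, 5 and 3 of 14, with H4K8ac at Csf1r, P2ry12, Spi1 and Pecam1 and H3K27me3 at Cx3cr1, Tmem119, Cldn5, Flt1 and Tek. The part of other cell types in these lists was not tested.

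**Figure D4:**
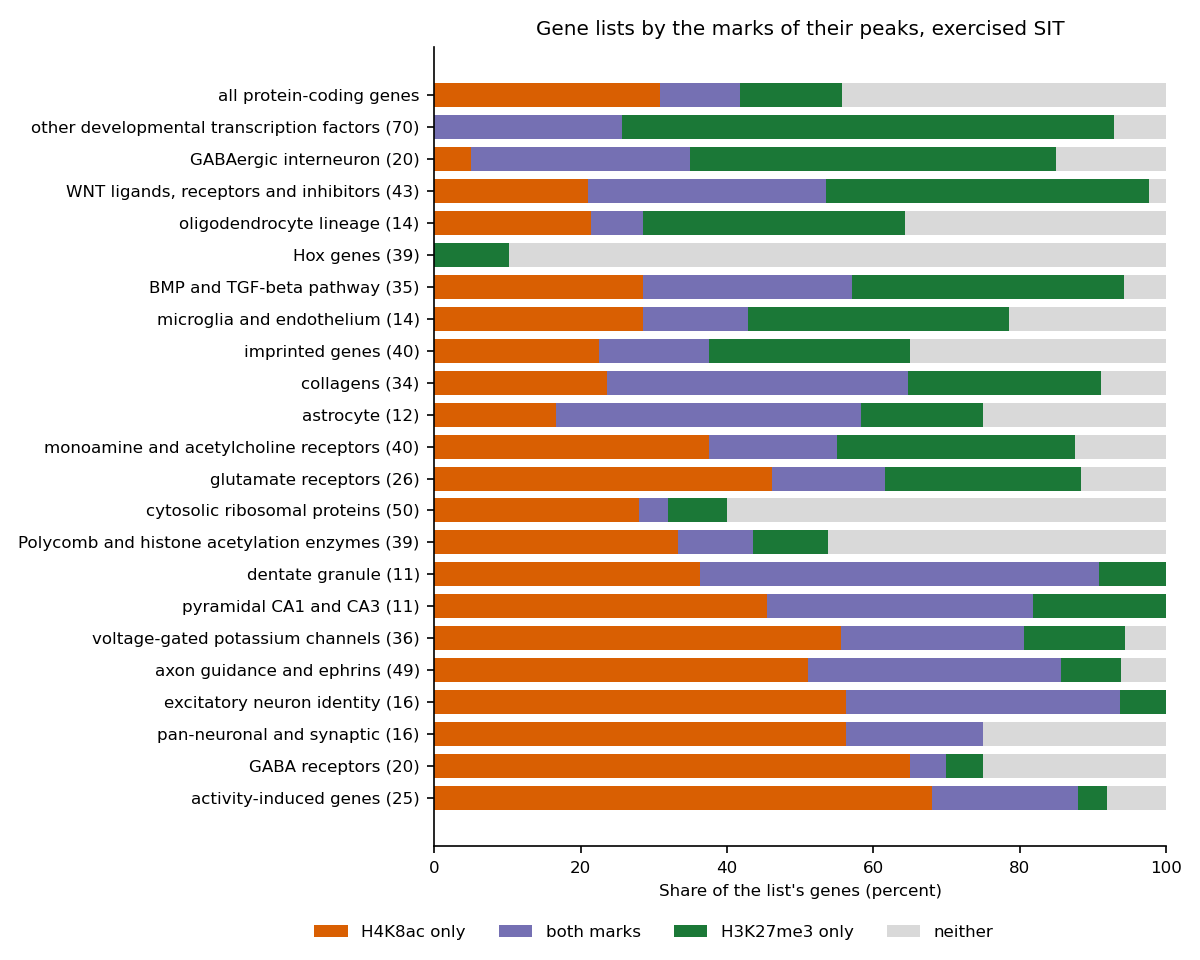
Share of the genes of each list (horizontal axis, percent; number of genes in brackets) with H4K8ac only, both marks, H3K27me3 only or neither in exercised SIT, ordered by the difference between the single-mark shares. Activity-induced genes, GABA receptors and neuronal genes lie at the H4K8ac end, other developmental transcription factors at the H3K27me3 end, and most Hox and ribosomal protein genes have no assigned peak. Of all 21951 protein-coding genes, 9711 have no assigned peak.

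Activity-induced genes stood towards H4K8ac. Of 25, 17 (68%) had H4K8ac only against 30.8% of all protein-coding genes, 5 both (1 by gene body, none to 3 in the other pairs), 1 H3K27me3 only and 2 neither. Bdnf, the brain-derived neurotrophic factor (chr2:109674700-109727007, plus strand), had 19 peaks (58185 bp), of which 9 were intergenic. Nr4a3, a nuclear receptor, had 19 (52004 bp), Egr3, a zinc finger factor, 10 (24110 bp), and Dusp6, a MAP kinase phosphatase, 12 (23728 bp). Fos and Jun, the AP-1 subunits, had both marks, 22086 and 3952 bp apart. Nr4a2 had both in overlap, with 6 H4K8ac and 3 H3K27me3 peaks (23207 and 9388 bp), and Vgf, a secreted neuropeptide precursor, had 1 H3K27me3 peak of 4091 bp. No start of the 25 lay in an H3K27me3 peak, and 5 (20%) lay in an H4K8ac peak, against 18.4% of all protein-coding starts.

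Developmental transcription factors stood at the other end. Of 70 outside the Hox clusters, 47 (67.1%) had H3K27me3 only against 13.9% of all protein-coding genes, 18 both, none H4K8ac only and 5 neither, and 68 had the start in H3K27me3. By gene body 65 had H3K27me3 only and 4 both, 9 had both without distal intergenic peaks, and 5 to 14 had both in the other pairs. Irx1, an Iroquois homeobox gene, had 56 peaks (312112 bp), Pax3, a paired box gene, 18 (208786 bp), and Nkx6-1, a homeobox gene, 22 (166984 bp). In 13 of the 18 with both marks a single H4K8ac peak was the only one, as in Pax5 (2726 bp, 11204 bp away) and Six2 (1408 bp, 7707 bp away). Foxc1, a forkhead factor of the meninges, had 7 H4K8ac peaks (18405 bp) 53146 bp from its H3K27me3. Lhx9, a LIM homeobox gene, was the 1 member with its start in H4K8ac, with 5 and 4 peaks that overlapped.

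The Hox genes show what the single assignment does. In the lists, 4 of 39 had H3K27me3 (Hoxb1, Hoxb13, Hoxc13 and Hoxd1) and none H4K8ac, yet 38 of the 39 starts lay inside an H3K27me3 peak. Counted by overlap with the gene body or the 3 kb before it, 39 of 39 had H3K27me3. Hoxb13 was given 2 peaks of 94600 bp in all. Of 50 ribosomal protein genes, 14 (28%) had H4K8ac only, near the 30.8% of all protein-coding genes, 2 both and 4 H3K27me3 only. The other 30 (60%) had neither, beside 9711 of the 21951 protein-coding genes. Of their starts 11 lay in H4K8ac, none in H3K27me3 and 39 in neither mark, beside 18.4% of all protein-coding starts in H4K8ac and 10.3% in H3K27me3.

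Neurotransmitter receptors divided by subunit. Of 26 glutamate receptor genes, 12 had H4K8ac only, 4 both (1 without distal intergenic peaks, 2 to 5 in the other pairs), 7 H3K27me3 only and 3 neither. The AMPA subunits Gria1 (36 peaks, 76423 bp) and Gria2 (39 peaks, 116392 bp), the kainate subunit Grik2 (59 peaks, 148546 bp) and the presynaptic metabotropic receptor Grm7 (44 peaks, 85481 bp) had H4K8ac only. Grik1, a kainate subunit, had H3K27me3 only, with 39 peaks (325089 bp), and so did Grin2c, Grin2d and Grin3b among NMDA subunits and Grm4, Grm6 and Grm8 among metabotropic receptors. Of 20 GABA receptor genes, 13 (65%) had H4K8ac only, 1 both, 1 H3K27me3 only and 5 neither. Of the 5, Gabra3, Gabre and Gabrq are on chromosome X, so their lack of peaks may not be a lack of the marks. Gabra2 (26 peaks, 73013 bp) and Gabrb1 (18, 54094 bp) had H4K8ac only, and Gabrp, a subunit known from outside the brain, had 9 H3K27me3 peaks (54121 bp).

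Of 40 monoamine and acetylcholine receptor genes, 15 had H4K8ac only, 7 both, 13 H3K27me3 only and 5 neither. By gene body or without distal intergenic peaks 3 had both, and in the other pairs 1 to 3. Htr1a, a serotonin receptor of hippocampal neurons, had 15 H4K8ac peaks (35869 bp), whereas Htr1b and Htr1d had H3K27me3 only (12780 and 8317 bp). Htr2a, another serotonin receptor, had its start in both marks, with 4 H4K8ac and 5 H3K27me3 peaks (8826 and 13548 bp). Adra1b, an adrenergic receptor, had 20 H3K27me3 peaks (314222 bp) and Adra1d 10 H4K8ac peaks (21436 bp). Of 36 voltage-gated potassium channel genes, 20 had H4K8ac only, 9 both, 5 H3K27me3 only and 2 neither. By gene body or without distal intergenic peaks 5 had both, and in the other pairs 1 to 5. Kcna4 (54 peaks, 133515 bp) and Kcnd2 (23 peaks, 54932 bp), which carry A-type currents, had H4K8ac only, and Kcnh8 had H3K27me3 only (11 peaks, 56632 bp).

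In signalling families of development the counts of genes with both marks were lower when distal intergenic peaks were left out, as was the share of all protein-coding genes (6.37% in place of 11%). Of 43 WNT pathway genes, 9 had H4K8ac only, 14 (32.6%) both against 11% of all protein-coding genes, 19 H3K27me3 only and 1 neither. Counted by overlap with the gene body or the 3 kb before it, 2 of the 43 had both marks and 27 H3K27me3 only, and 5.58% of all protein-coding genes had both. Without distal intergenic peaks 6 (14.0%) had both, and the other 5 pairs of lists had 5 to 8. Of the secreted inhibitors, Wif1 (7 peaks, 107459 bp), Sfrp2 (14 peaks, 74449 bp), Dkk1, Sfrp1 and Sfrp5 had H3K27me3 only. Dkk2 had both marks, and Dkk3 and Sfrp4 had H4K8ac only. Among the transcription factors that end the pathway, Tcf7l2 had 29 H3K27me3 peaks (221091 bp) and 1 H4K8ac peak (1309 bp) 3071 bp away, and Lef1 had 19 (99607 bp) with its single H4K8ac peak (1191 bp) in overlap. Of the ligands, Wnt4 (5 peaks, 11271 bp), Wnt7b, Wnt9a and Wnt10a had H4K8ac only. More of them, Wnt1, Wnt3, Wnt3a, Wnt5a, Wnt5b, Wnt6, Wnt9b, Wnt10b and Wnt16, had H3K27me3 only. Wnt2, Wnt2b, Wnt7a, Wnt8b and Wnt11 had both marks. Of 49 axon guidance genes, 25 had H4K8ac only, 17 both, 4 H3K27me3 only and 3 neither. By gene body 6 had both, without distal intergenic peaks 10, and in the other 5 pairs 5 to 11. Slit3, a repulsive ligand, had 39 H4K8ac peaks (90995 bp) and Epha7, an ephrin receptor, 38 (93025 bp). Efna5, an ephrin ligand, had 44 H3K27me3 peaks (213836 bp) and 6 H4K8ac peaks (10161 bp) 2907 bp apart, while Nrp2, a semaphorin receptor, had 34 H4K8ac peaks (96978 bp) and a single H3K27me3 peak of 2093 bp.

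Of 35 BMP and TGF-beta genes, 10 had H4K8ac only, 10 both, 13 H3K27me3 only and 2 neither. By gene body 2 had both, without distal intergenic peaks 6, and in the other pairs 4 to 8. Among BMP ligands, Bmp2, Bmp3, Bmp4, Bmp5, Bmp6 and Bmp8a had H3K27me3 only and Bmp7 had both, whereas Inhba, the activin subunit induced by activity, had 8 H4K8ac peaks (20146 bp). Bmper, a secreted BMP modulator, had 6 and 21 peaks (12741 and 103193 bp) 1175 bp apart. Of 34 collagen genes, 8 had H4K8ac only, 14 (41.2%) both, 9 H3K27me3 only and 3 neither. By gene body 10 had both, without distal intergenic peaks also 10, and in the other pairs 2 to 10. Col1a1 had the marks 122 bp apart and Col27a1 in overlap, with 4 H3K27me3 peaks of 147983 bp in all. Imprinted genes gave 9, 6, 11 and 14 of 40, with 3 having both by gene body and 2 to 7 in the other pairs. Grb10, an adaptor of insulin signalling expressed from the paternal allele in neurons, had 18 H3K27me3 peaks (227194 bp), and Asb4 had its H4K8ac 1418 bp from an H3K27me3 peak of 12647 bp. The genes of the enzymes that write, read or remove these marks gave 13, 4, 4 and 18 of 39 (33.3, 10.3, 10.3 and 46.15%). That was near the shares of all protein-coding genes (30.8, 11 and 13.9%, and 9711 of 21951 with neither). By gene body 2 had both, and in the other pairs 1 to 5. The PRC2 genes Ezh2, Eed and Suz12 were among those without an assigned peak, Jarid2 had 2 H3K27me3 peaks (6834 bp), and the deacetylase gene Hdac9 had 40 H4K8ac peaks (89157 bp).

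Of 20 genes chosen from those that the study names, 10 had H4K8ac only, 4 both (2 by gene body, 1 to 3 in the other pairs), 2 H3K27me3 only and 4 neither. Besides those already given, Efnb2, an ephrin ligand, had 13 H4K8ac and 2 H3K27me3 peaks 42356 bp apart, and 2 of its H4K8ac peaks were intergenic. Col3a1 had 2 peaks of each mark, all intergenic, sharing 773 bp. Sntb2 (10687 bp), Gap43 (11111 bp), Nr4a1 (6313 bp), Kcna1 (6192 bp), Dusp5 (3985 bp), Stxbp5l (2851 bp), Kptn (2264 bp) and Fdxr (1250 bp) had H4K8ac only. Myoc (5871 bp) and Epop (2404 bp) had H3K27me3 only. Rtl1, Asphd1, Sox21 and Camk2n2 had no assigned peak, though the starts of Rtl1 and Sox21 lay in an H3K27me3 peak and that of Asphd1 in an H4K8ac peak given to a neighbour.

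The largest single-mark genes were of different kinds. With H4K8ac only, Celf2, an RNA-binding splicing regulator, had 100 peaks (231402 bp), followed by 5730522E02Rik (60 peaks, 202109 bp), Anks1b, a postsynaptic scaffold (62, 179235 bp), Tcf4 (49, 175386 bp) and St6galnac3, a sialyltransferase (38, 164424 bp). Few of these peaks were intergenic, 22 of 100 in Celf2 and none in Anks1b. With H3K27me3 only, Sox6, a factor of interneurons and oligodendrocyte precursors, had 45 peaks (606733 bp), Maf, an interneuron factor, 53 (602923 bp, of which 46 peaks were intergenic), Tshz2, a zinc finger factor, 54 (490412 bp), Zfhx3, a homeobox factor, 48 (478420 bp) and A730082K24Rik, beside Sox6, 15 (415408 bp).

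Other pairs of lists showed how far the classes repeated. Of the genes with both marks in exercised SIT, 1115 (39.1%) had both in sedentary SIT, 829 (29.1%) in exercised left, 1502 (52.7%) in sedentary left, 691 (24.2%) in exercised right and 1663 (58.3%) in sedentary right. Both marks were found in at least 1 other pair for 2157 (75.7%) and in all 5 others for 310 (10.9%). Genes with H4K8ac only had that class in at least 1 other pair for 90.6% and in all 5 for 29.6%, and genes with H3K27me3 only for 90.2 and 36.8%. A swap to the opposite single mark in at least 1 other pair was seen in 148 genes with H4K8ac only (1.88%) and 257 with H3K27me3 only (7.10%). The 310 genes with both in all 6 pairs included Acvr2a, Adarb2, Aqp4, Bmp7, Bmper, Cbx8, Efna5, Foxc1, Kcnk9, Lef1, Robo1, Sema6d, Stxbp6, Unc5d and Wnt2b of the lists. Of the 70 developmental factors, 38 had H3K27me3 only in all 6 pairs, against 5.06% of all protein-coding genes. Of the activity-induced genes 10 of 25, and of the excitatory identity genes 8 of 16, had H4K8ac only in all 6, against 8.93% of all protein-coding genes.

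The share of H3K27me3 genes that also had H4K8ac was highest in exercised SIT, which also had the longest lists of both marks. It was 44.1% there, 34.2% in sedentary SIT, 17.9% in exercised left, 39.7% in sedentary left, 21.8% in exercised right and 33.4% in sedentary right. With every list reduced to its 9899 widest peaks, the length of the shortest list, these shares were 16.1, 16.6, 14.7, 15.8, 16.9 and 15.6% in the same order, and exercised SIT no longer stood first. With promoter peaks only they were 13.5, 7.73, 3.45, 11.1, 4.997 and 8.99%. The median gap was shortest in exercised SIT at 12929 bp, and was 24916, 35190, 19310, 36205 and 18433 bp in the others in that order. Overlapping genes were 214 (7.51%) there and 58 (4.42%), 13 (1.40%), 65 (3.51%), 14 (1.83%) and 103 (5.13%) in the others. No test between single lists was possible, and list length moved with these values.

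**Figure D5:**
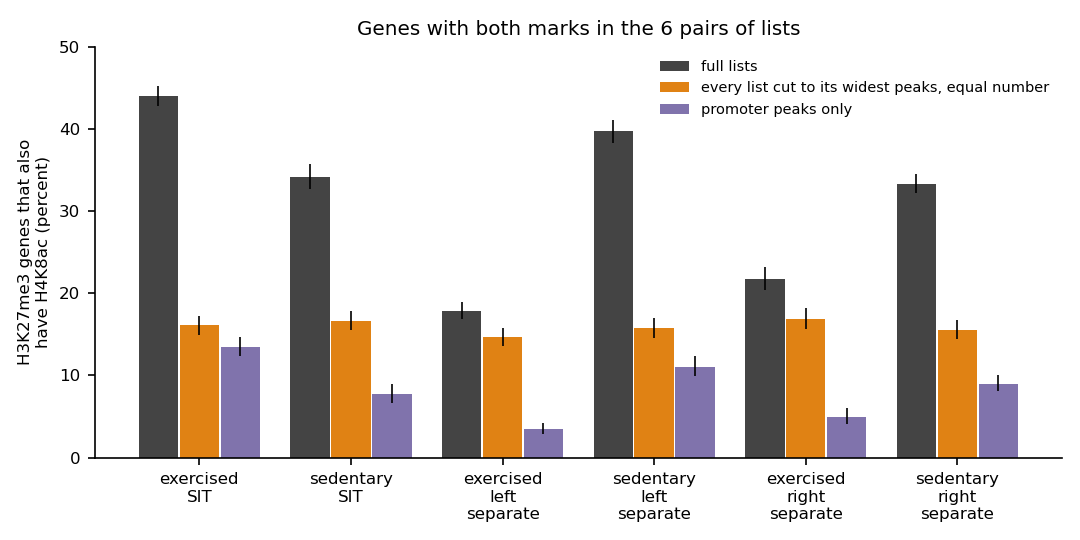
Share of H3K27me3 genes that also have H4K8ac (vertical axis, percent, with 95% Wilson intervals for counting error) in each of 6 pairs of lists, for the full lists, for every list reduced to its 9899 widest peaks and for promoter peaks only. The full lists range from 17.9 to 44.1%, and the lists of equal length from 14.7 to 16.9%.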

How the data were processed

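The 60 CUT&RUN-seq samples fall by their labels into 18 groups of antibody (H4K8ac, H3K27me3 or IgG), condition and isolation. The 20 IgG samples have no list of their own and were not used. Per the methods, reads were checked with FastQC 0.11.9, aligned with Bowtie2 2.4.1, peaks called with SEACR (stringent setting), and annotated with ChIPseeker 1.8.6 against mm10 genes, with promoters within 3 kb of a start. Per the file headers, the deposited tables give positions and widths in bp, an annotation class, the distance to the start and a symbol. The other values that could give depth, such as counts or signal, are not in these columns, so the depth is unknown and count models do not apply. How libraries were combined into a list is not given in the sources used here. In exercised SIT, 87 H4K8ac peaks (0.228%) and 145 H3K27me3 peaks (0.564%) had no symbol.

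Of 16994 symbols, 16989 (99.97%) matched a GENCODE M21 gene. Sequence came from RefSeq GRCm38. A gene had a mark where the list gave it 1 peak or more, and peaks overlapped at 1 bp or more. Each gap is the shortest distance between peak edges. Shares have 95% Wilson intervals and medians have order-statistic intervals. The marks were compared over 6 pairs of lists by flipping the signs of the differences in every way (exact permutation, two-sided) with Benjamini-Hochberg adjustment over 6 tests, at a threshold of 0.05. Left and right lists came from different mice. The labels number biological replicates, but the lists do not separate them. The test and the interval functions were tested on simulated data.

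The members, gene lists and tests were chosen with earlier results of these data known. Named genes were the 10 with the largest smaller total width of both marks, the 5 with most overlapping bases, the 5 with the widest total of each mark alone, up to 4 widest members per list and class, 20 of the genes the study names (chosen by no written rule), and the gene of the widest peak of each mark. Other members named with the lists (such as those without a peak) were chosen after their values were seen. A few genes that these rules name are not reported here. Tools were statsmodels 0.14.6, scipy 1.17.1, pandas 2.3.3 and numpy 2.4.6 under Python 3.11.15, with figures by matplotlib 3.10.9.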

Additional observations from a re-analysis of the deposited data

Results flagged for a closer look

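Sedentary SIT stood apart from the other 5 pairs in 2 of the 10 quantities examined, by a check on the gap between an extreme value and its neighbour that chance trips in about 1 of 20 groups of 6. The difference in promoter share of peaks, H3K27me3 minus H4K8ac, was 6.18 points there and -6.29 to -2.80 in the others, exercised SIT at the low end. The difference in median GC content was 1.49 points there and -0.821 to -0.0253 in the others. Sedentary SIT also had the narrowest H4K8ac and the widest H3K27me3 peaks of the 6 pairs (medians of 1265 and 4375 bp), and their part in these values was not tested.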

How the results depend on the processing

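No paired analysis was possible because the lists pool the replicate numbers of the labels, and leaving out a replicate was not possible for the same reason. The tests of the report pair lists, not replicates. Of 77 values recomputed, 41 stayed the same, meaning a count within 1.5 times, a share or median within its 95% interval, or a test of the same sign on the same side of 0.05. The number of genes with both marks, 2851, was 481 with promoter peaks only, 1592 without distal intergenic peaks, 1005 with 2 or more peaks of a mark, 1267 with the widest 50% of each list, 947 and 1079 with peaks repeated in the sedentary SIT or an exercised separate list, and 1611 (1224 protein-coding) by gene body or the 3 kb before it. Genes with H4K8ac only were 4689 with 2 or more peaks, 5017 with peaks repeated in an exercised separate list and 11941 (7664 protein-coding) by gene body, and with H3K27me3 only 6632 (3056 protein-coding) by gene body, which also put H3K27me3 on 39 Hox genes in place of 4. The median gap was 15797 bp between centres, 15399 bp for H4K8ac promoter peaks, 27682 bp for the widest 50% and 33445 bp for peaks repeated in sedentary SIT. Without distal intergenic peaks, H4K8ac was nearer the start in 47.7% and 72.6% of genes with both had both in another pair. The promoter difference was 7.10 points by bases and 3.67 for the widest 50%, and the GC difference at promoters -0.991, each of the other sign. The GC difference at promoters, the promoter difference by bases and the CpG ratio difference passed 0.05, by adding a test at the smallest p to the family, the last for the central 500 bp (-0.0265) and promoter peaks (-0.0724). The shares by pair were 13.5, 7.73, 3.45, 11.1, 4.997 and 8.99% for promoter peaks and 16.1, 16.6, 14.7, 15.8, 16.9 and 15.6% at equal length. Protein-coding genes, gene body for functions, functions, arrangement and repeats without intergenic peaks, and the 4 pairs without exercised separate lists were chosen after seeing the data. With 4 pairs no p can pass 0.05. Apart from the smaller number of peaks or genes each setting leaves, the cause was not tested.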

Other observations

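Chromosome X held few peaks of either mark in exercised SIT, 113 of H4K8ac (0.661 per Mb) and 136 of H3K27me3 (0.795 per Mb), against 9.74 to 18.7 and 6.69 to 14.8 per Mb on chromosomes 1 to 19. The X-linked members Gria3, Gabra3, Gabre and Gabrq (receptor subunits) and Syn1 (a synaptic vesicle protein) had no assigned peak, whereas Kdm6a, a demethylase gene, had H4K8ac only and the receptor gene Htr2c and the collagen gene Col4a5 had H3K27me3 only. Whether peaks on chromosome X were filtered is not given in the sources used here, so a missing peak there cannot be read as a missing mark.

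Some genes without an assigned peak had a marked start. Of 9711 protein-coding genes with neither mark in the lists, the start of 336 (3.46%) lay in an H4K8ac peak and that of 223 (2.30%) in an H3K27me3 peak. Conversely, 55.9% of protein-coding genes with H4K8ac only and 51.5% with H3K27me3 only had a start in neither mark.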
